A study of Mus musculus with 6 samples.

Results

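Expression of 8 tendon-lineage genes, Tnmd, Comp, Scx, Mkx, Thbs4, Cilp, Cilp2 and Chad, was followed in fibro/adipogenic progenitors (FAPs), stromal cells of skeletal muscle that express the receptor Pdgfra. The genes were taken by name as a set linked to tendon and neighbouring cartilage. Each had 1 probe set annotated to it alone, so 8 of the 19938 genes named on the array were read, and all 8 were among the 14953 genes whose mean level passed the filter on low values. The cells came from male C57Bl/6 mice aged 8 to 12 weeks, labelled wild type, in every group. The protocol names the tibialis anterior as the injured muscle, and the source label names hindlimb muscles. Each muscle had received 30 µL of 50% glycerol, an injury that leaves fat and scar tissue in the muscle, then a vivo-morpholino (VMO) 3 days later, and cells were isolated 2 days after the VMO. A VMO is an antisense molecule coupled to a group that carries it into cells, and it masks the RNA stretch it pairs with. The 3 groups received Control VMO, polyadenylation-site VMOs (pA-VMO) or a 5' splice-site VMO (5'ss-VMO), and the study's title names intronic polyadenylation of Pdgfra as its subject. Each group had 2 arrays, each with RNA from the pooled cells of 4 mice, so the spread between arrays is a spread between pools. The injury was common to all groups, and none was left uninjured.

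Tendon cells arise from progenitors that express the basic helix-loop-helix transcription factor scleraxis (Scx), and the homeobox factor Mohawk (Mkx) supports collagen production as they mature. Mature tenocytes carry the membrane protein tenomodulin (Tnmd) and deposit a matrix of type I collagen in which cartilage oligomeric matrix protein (Comp) and thrombospondin 4 (Thbs4) bind collagen. Cilp and Cilp2 encode secreted cartilage intermediate layer proteins, and Chad encodes chondroadherin, a leucine-rich repeat protein that binds collagen and integrins. In skeletal muscle, several of these matrix proteins are also made by stromal cells outside tendon.

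The array values are log2 levels, and all changes below are differences of log2 levels. The pairwise correlation of arrays over genes ran from 0.993 to 0.997, and each of the 6 arrays was nearest to the other array of its own group. The median SD between arrays of a group was 0.07 over all genes tested. Groups were compared with limma, which borrows information on the spread from all genes. Called genes are those with a two-sided p under 0.05 after Benjamini-Hochberg adjustment over all 14953 genes. With 2 arrays against 2, an exact permutation test cannot give a p below 0.333. The mean level of 14 FAP markers lay between 10.03 and 10.15 on the 6 arrays. That of 5 Schwann cell markers lay between 6.02 and 6.15, and that of 8 endothelial markers between 6.12 and 6.36. Macrophage markers lay between 6.51 and 6.87, and muscle fibre markers between 6.53 and 6.68. Satellite cell and myoblast markers lay between 6.84 and 7.20, and pericyte and smooth muscle markers between 7.30 and 7.51. The level of one probe set cannot be set against that of another on these arrays, so levels are compared between groups and not between genes.

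None of the 8 genes was called in any comparison by limma. With pA-VMO against control, 0 of 8 passed, where 0.00669% of all genes did. With 5'ss-VMO against control, 0 of 8 passed against 0.582% of all genes, and between the reagents 0 of 8 against 0.0602%. An F test of any difference among the 3 groups called 0 of 8, with 0.361% of all genes called. At an unadjusted p under 0.05, 2 members lay lower with pA-VMO (Comp and Tnmd), 1 with 5'ss-VMO (Comp) and 1 with pA-VMO against 5'ss-VMO (Chad). Of all genes, 5.23%, 6.19% and 7.11% lay lower at that level in these comparisons (and 6.22%, 7.72% and 8.81% higher), and 1 or 2 of 8 members is too few to set apart from such shares. The F test gave 1 member (Comp) an unadjusted p under 0.05, against 16.5% of all genes. The median difference of the 8 genes was -0.04 with pA-VMO (0.01 over all genes tested), -0.01 with 5'ss-VMO (0.00 over all genes) and -0.07 between the reagents (0.00 over all genes). All 3 comparisons share arrays, so they are not independent of each other.

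**Figure D1:**
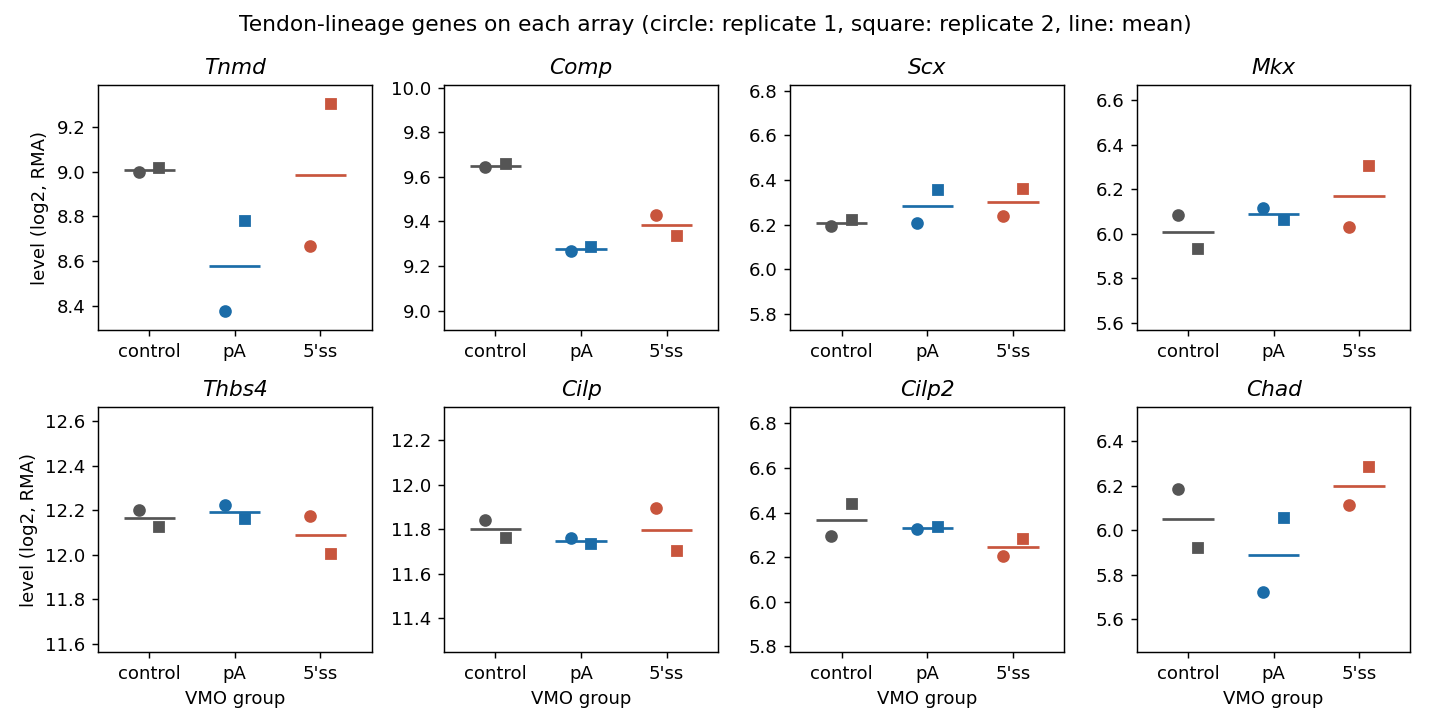
Level of each of the 8 tendon-lineage genes (log2, RMA; y axis) on the 2 arrays of each VMO group (x axis); circles are replicate 1, squares replicate 2 and lines group means, and each panel spans the same range of log2 units. Comp lies near 9.65 on both control arrays and at 9.43 or below on all 4 others, while the arrays of Tnmd scatter from 8.38 to 9.30.

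Comp had the smallest F-test p of the 8 genes. It encodes a pentameric thrombospondin of cartilage and tendon that bridges collagen fibrils, and lies on chromosome 8 from 70373548 to 70382066 (GRCm38.p6). Its level was 9.64 and 9.66 with control, 9.27 and 9.29 with pA-VMO, and 9.43 and 9.34 with 5'ss-VMO. Both reagents thus lay below control without overlap, and both pA-VMO arrays lay below both 5'ss-VMO arrays. Arrays of the groups compared did not overlap in 42.9% of all genes with pA-VMO, 44.8% with 5'ss-VMO and 49.1% between the reagents, so separation by itself is common here. Among the 8 members the corresponding counts were 2, 3 and 3.

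The difference of Comp from control was -0.38 ± 0.065 (SE, n = 2 arrays per group; 95% interval -0.52 to -0.23) with pA-VMO, 1.30-fold lower, with an adjusted p of 0.204. By its p, Comp stood at place 14 of 14953 genes in that comparison. With 5'ss-VMO the difference was -0.27 ± 0.065 (95% interval -0.42 to -0.12), 1.20-fold lower, with an adjusted p of 0.139. The difference between pA-VMO and 5'ss-VMO, -0.11 ± 0.065, had a 95% interval from -0.26 to 0.04 and an adjusted p of 0.458, so the order of these 2 groups is not settled. The F test gave Comp an adjusted p of 0.0884. When limma let the spread follow the level and was made robust, Comp was called with pA-VMO (adjusted p = 0.0159; 0.328% of all genes called) and with 5'ss-VMO (adjusted p = 0.0253; 1.77% of all genes). Its F-test adjusted p was then 0.00642, with 2% of all genes called. With the filter set at the median level of all genes it was called by the F test (adjusted p = 0.0321; 1.71% of the 9969 genes then tested), and over all 15 alternatives its adjusted p ran from 0.0159 to 0.633 with pA-VMO and from 0.0253 to 0.456 with 5'ss-VMO.

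The arrays hold bulk RNA, so fewer cells that express Comp and less Comp RNA per cell cannot be told apart. Other lists also differed between the same groups. All 12 proliferation genes lay above control with both reagents; limma called 0 of them in either comparison, and 11 and 8 lay higher at an unadjusted p under 0.05, where 6.22% and 7.72% of all genes did. Their mean level was 7.15 on both control arrays, 7.46 to 7.50 with pA-VMO and 7.31 to 7.54 with 5'ss-VMO. For the lists that follow, the share of all genes called was 0.00669% (pA-VMO) and 0.582% (5'ss-VMO, against the same control). The 14 macrophage markers had a mean level of 6.51 to 6.69 with control, 6.75 to 6.76 with pA-VMO and 6.85 to 6.87 with 5'ss-VMO, with 11 and 13 of 14 above control, of which 0 and 2 (the complement genes C1qc and C1qa) passed. The 14 FAP markers lay at 10.13 to 10.15 with control, 10.03 to 10.05 with pA-VMO and 10.03 to 10.06 with 5'ss-VMO. Of these, 10 and 11 lay below control, and 0 and 1 (Dpp4, a marker of FAPs of the interstitium) passed. The FAP list holds Pdgfra, the gene named in the study's title, and Dcn, which is also among the other tendon genes below. Of 8 pericyte and smooth muscle markers, 6 and 7 lay above control (0 and 1 passed), and of 11 satellite cell and myoblast markers, 6 and 9 did (0 and 1 passed). Of 10 interferon-stimulated genes, 0 passed with pA-VMO and 7 rose with 5'ss-VMO, and the list's mean level was 9.56 to 9.70 with control, 9.77 to 9.87 with pA-VMO and 10.14 to 10.16 with 5'ss-VMO. Of 8 endothelial markers, 6 and 4 lay above control (0 and 1 passed). At an unadjusted limma p under 0.05 with pA-VMO, 7 interferon-stimulated genes, 4 macrophage and 4 pericyte markers lay higher, and 0 lower. Of FAP markers 3 lay lower and 0 higher, of endothelial markers 1 lower and 2 higher, and of satellite cell markers 0 either way. With 5'ss-VMO the counts higher and lower were 8 and 0 (interferon), 6 and 1 (macrophage) and 4 and 0 (pericyte). For FAP markers they were 0 and 5, for endothelial markers 2 and 1, and for satellite cell markers 6 and 0. Of all genes, 6.22% (pA-VMO) and 7.72% (5'ss-VMO) lay higher by that measure, and 5.23% and 6.19% lower. The part of these shifts in the difference of Comp was not tested.

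Genes beside Comp on the chromosome all lay nearer to control than Comp did. The 19 tested genes within 250 kb of it on either side lay between -0.15 and 0.14 with pA-VMO (median 0.02). With 5'ss-VMO they lay between -0.22 and 0.22 (median -0.02). Among these neighbours limma called 0, where 0.00669% (pA-VMO) and 0.582% (5'ss-VMO) of all genes passed. Before adjustment, 0 and 2 neighbours had a limma p below 0.05. Of all genes, 6.22% were higher and 5.23% lower by that measure with pA-VMO. The shares with 5'ss-VMO were 7.72% and 6.19%. With 19 genes, these counts cannot be told from those shares. Cilp2, another member, ends 486 kb before the start of Comp. It differed from control by -0.04 with pA-VMO and by -0.12 with 5'ss-VMO.

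Thbs4, the thrombospondin of tendon and of the matrix around muscle fibres, was nearly level across the groups. The gene lies on chromosome 13 from 92751586 to 92794818. Its level was 12.20 and 12.13 with control, 12.22 and 12.16 with pA-VMO, and 12.17 and 12.00 with 5'ss-VMO. All 3 groups overlapped. The difference from control was 0.03 ± 0.077 with pA-VMO (95% interval -0.14 to 0.20, adjusted p = 0.922) and -0.07 ± 0.077 with 5'ss-VMO (95% interval -0.25 to 0.10, adjusted p = 0.706). Between the reagents it was 0.10 (95% interval -0.07 to 0.28, adjusted p = 0.543).

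Thbs4 and Comp belong to one gene family with Thbs1, Thbs2 and Thbs3, which are named here for that kinship. Thbs3, like Comp and Thbs4 a pentamer, lay at 10.34 and 10.35 with control, 10.14 and 10.11 with pA-VMO, and 10.21 and 10.10 with 5'ss-VMO. All 4 treated arrays were below both control arrays, at differences of -0.22 (adjusted p = 0.31) and -0.19 (adjusted p = 0.276) that did not pass. Of the trimeric members, Thbs1 lay at 0.09 and 0.10 from control (adjusted p = 0.64 and 0.546) and Thbs2 at -0.02 and 0.04 (adjusted p = 0.936 and 0.825).

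Tnmd, a late marker of tenocytes that supports their proliferation, varied more between arrays of a group than any other member. It lies on the X chromosome from 133851008 to 133865577. Its level was 9.00 and 9.02 with control, 8.38 and 8.78 with pA-VMO, and 8.67 and 9.30 with 5'ss-VMO. The control arrays agreed within 0.02, while the pA-VMO arrays were 0.41 apart and the 5'ss-VMO arrays 0.64 apart, on both sides of control. The SD between arrays of Tnmd, pooled over the groups, was 0.31, larger than that of 99.9% of the genes tested. Its difference from control was -0.43 ± 0.19 with pA-VMO (95% interval -0.85 to -0.004, 1.35-fold lower, adjusted p = 0.432). Without pA-VMO replicate 1 it was -0.23 (adjusted p = 0.812) and without pA-VMO replicate 2 it was -0.63 (adjusted p = 0.487). With 5'ss-VMO the difference was -0.02 ± 0.19 (95% interval -0.45 to 0.40, adjusted p = 0.974), which moved to 0.30 when 5'ss-VMO replicate 1 was left out and to -0.34 when replicate 2 of that group was. Between the reagents it was -0.41 (95% interval -0.83 to 0.02, adjusted p = 0.329), -0.20 and -0.61 without pA-VMO replicates 1 and 2, and -0.73 and -0.09 without 5'ss-VMO replicates 1 and 2.

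Chad, whose protein binds collagen and cell-surface integrins, also scattered widely. It lies on chromosome 11 from 94565047 to 94569127. Its level was 6.18 and 5.92 with control, 5.72 and 6.05 with pA-VMO, and 6.11 and 6.28 with 5'ss-VMO. Both reagents overlapped control, and the pA-VMO arrays lay below the 5'ss-VMO arrays. That difference, -0.31 ± 0.12 (95% interval -0.59 to -0.03, adjusted p = 0.271), ran from -0.48 without pA-VMO replicate 2 to -0.14 without pA-VMO replicate 1. Against control Chad differed by -0.16 with pA-VMO (95% interval -0.44 to 0.12, adjusted p = 0.666), while the 5'ss-VMO difference was 0.15 (95% interval -0.13 to 0.43, adjusted p = 0.639). Its SD between arrays, 0.19, was larger than that of 97.7% of genes. Tnmd and Chad had their lowest level on the same array, pA-VMO replicate 1, and their highest on the same array, 5'ss-VMO replicate 2. This was not particular to them. Scx and Mkx were also highest on 5'ss-VMO replicate 2, Thbs4 and Cilp were lowest there, and Comp was lowest on pA-VMO replicate 1. Chadl, the paralog of Chad, lay at 0.10 and -0.14 from control with pA-VMO and 5'ss-VMO (adjusted p = 0.626 and 0.428). Between the reagents Chadl differed by 0.24 (95% interval 0.08 to 0.40, adjusted p = 0.171), in the direction opposite to Chad. Cnmd, the paralog of Tnmd, lay at 0.06 and -0.06 from control (adjusted p = 0.813 and 0.784) and at 0.12 between the reagents (adjusted p = 0.498).

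The start-site windows of Tnmd and Chad are shown because these members scattered most and had their extremes on the same arrays. Other members also had extremes on these arrays. Each window holds 250 bases before and 50 bases from the transcription start (RefSeq, GRCm38.p6), 5′ to 3′ on the gene's own strand, at chrX:133850758-133851057 (plus strand) for Tnmd and chr11:94564797-94565096 (plus strand) for Chad. Capitals mark CANNTG, the E-box motif that basic helix-loop-helix factors such as scleraxis bind, searched on both strands.
Tnmd: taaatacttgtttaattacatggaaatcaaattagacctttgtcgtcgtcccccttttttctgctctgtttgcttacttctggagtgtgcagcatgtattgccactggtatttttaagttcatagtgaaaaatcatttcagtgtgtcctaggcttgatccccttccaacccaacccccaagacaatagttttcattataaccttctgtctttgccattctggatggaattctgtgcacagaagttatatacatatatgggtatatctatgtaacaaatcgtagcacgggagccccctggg
Chad: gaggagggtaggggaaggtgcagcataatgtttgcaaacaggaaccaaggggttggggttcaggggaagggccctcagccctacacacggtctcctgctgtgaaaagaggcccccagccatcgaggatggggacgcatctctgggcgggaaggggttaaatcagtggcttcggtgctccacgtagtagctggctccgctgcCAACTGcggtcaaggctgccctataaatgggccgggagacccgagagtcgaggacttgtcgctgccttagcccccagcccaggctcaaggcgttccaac
The Tnmd window held 0 matches to CANNTG and 0 to TATAAA, and 40.0% of its bases were G or C, against a median of 52.7% over the 32851 windows of the table. The Chad window held 1 match to CANNTG, starting at position -49, and 1 to TATAAA, and 61.0% of its bases were G or C. Among the other members, the windows read held 3 matches to CANNTG for Cilp, 1 for Cilp2 and 2 for Thbs4. Windows of Comp, Scx and Mkx were not read. Of all windows, 72.31% held CANNTG and 13.62% held TATAAA, so most windows hold the E-box. A match here is a match of letters and was not tested as a binding site.

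**Figure D2:**
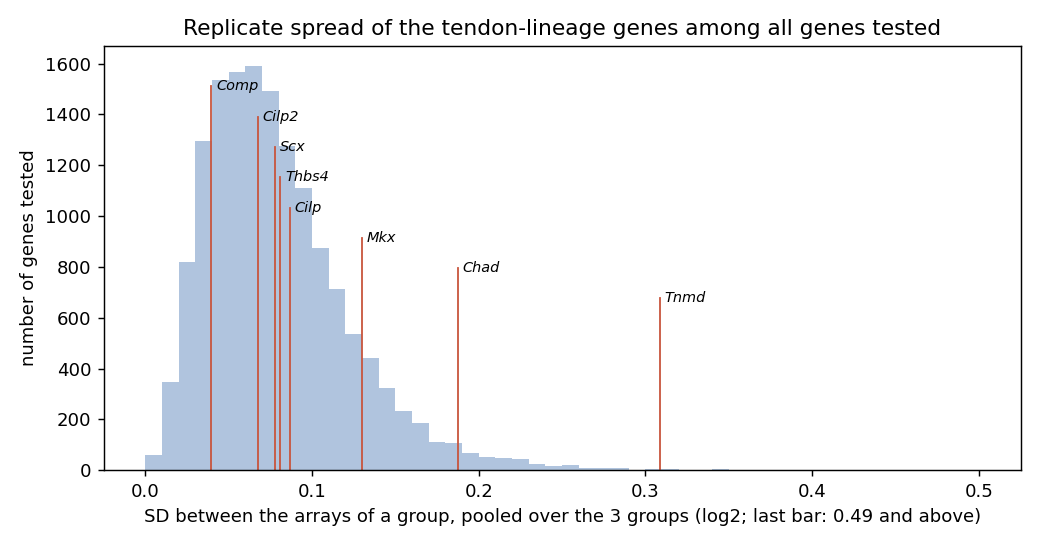
Histogram of the SD between the 2 arrays of a group, pooled over the 3 groups (x axis, log2), for the 14953 genes tested (y axis, number of genes; the last bar holds 0.49 and above), with a line at each tendon-lineage gene. Comp has the smallest SD of the 8 at 0.04, and Chad at 0.19 and Tnmd at 0.31 lie in the upper tail.

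The members differed widely in replicate spread. The SD of Comp, 0.04, was larger than that of 16.2% of genes, and those of Cilp2 (0.07), Scx (0.08), Thbs4 (0.08) and Cilp (0.09) lay above 45.5% to 64.0% of genes. Mkx, at 0.13, lay above 88.3%. The difference of Comp from control with pA-VMO was smaller than that of Tnmd, -0.38 against -0.43, and was measured with a standard error of 0.065 against 0.19.

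The transcription factors Scx and Mkx, which define the lineage, showed no called difference. Scx lies on chromosome 15 from 76457411 to 76459468. Its level was 6.19 and 6.22 with control, 6.21 and 6.35 with pA-VMO, and 6.24 and 6.36 with 5'ss-VMO. The 5'ss-VMO arrays lay above both control arrays and the pA-VMO arrays did not. The differences from control were 0.08 ± 0.076 (95% interval -0.10 to 0.25, adjusted p = 0.752) with pA-VMO and 0.09 ± 0.076 (95% interval -0.08 to 0.27, adjusted p = 0.623) with 5'ss-VMO. Between the reagents Scx differed by -0.02 (95% interval -0.19 to 0.15, adjusted p = 0.934). Mkx lay at 6.09 and 5.93 with control, 6.12 and 6.06 with pA-VMO, and 6.03 and 6.30 with 5'ss-VMO, and all groups overlapped. Its differences were 0.08 ± 0.097 (95% interval -0.14 to 0.30, adjusted p = 0.797) and 0.16 ± 0.097 (95% interval -0.06 to 0.38, adjusted p = 0.499) from control and -0.08 (95% interval -0.30 to 0.14, adjusted p = 0.732) between the reagents. The mean levels of Scx, Mkx and Chad were below the median of all named genes, 6.30, where RMA compresses differences.

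Cilp and Cilp2 encode related secreted proteins of the cartilage matrix, of which CILP binds TGF-beta. Cilp, on chromosome 9 from 65265180 to 65280614, had levels of 11.84 and 11.76 with control, 11.76 and 11.73 with pA-VMO, and 11.89 and 11.70 with 5'ss-VMO. The pA-VMO and control arrays overlapped, and the 5'ss-VMO arrays lay on both sides of all 4. Its difference from control was -0.05 ± 0.079 with pA-VMO (95% interval -0.23 to 0.13, adjusted p = 0.843) and -0.001 ± 0.079 with 5'ss-VMO (95% interval -0.18 to 0.18, adjusted p = 0.998). Between the reagents it was -0.05 (95% interval -0.23 to 0.13, adjusted p = 0.80).

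Cilp2, on chromosome 8 from 69880366 to 69887392, had levels of 6.29 and 6.44 with control, 6.33 on both pA-VMO arrays, and 6.21 and 6.28 with 5'ss-VMO. The 5'ss-VMO arrays lay just below all 4 others. The difference from control was -0.12 ± 0.073 with 5'ss-VMO (95% interval -0.29 to 0.04, adjusted p = 0.488) and -0.04 ± 0.073 with pA-VMO (95% interval -0.20 to 0.13, adjusted p = 0.894). Between the reagents it was 0.09 (95% interval -0.08 to 0.25, adjusted p = 0.602).

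**Figure D3:**
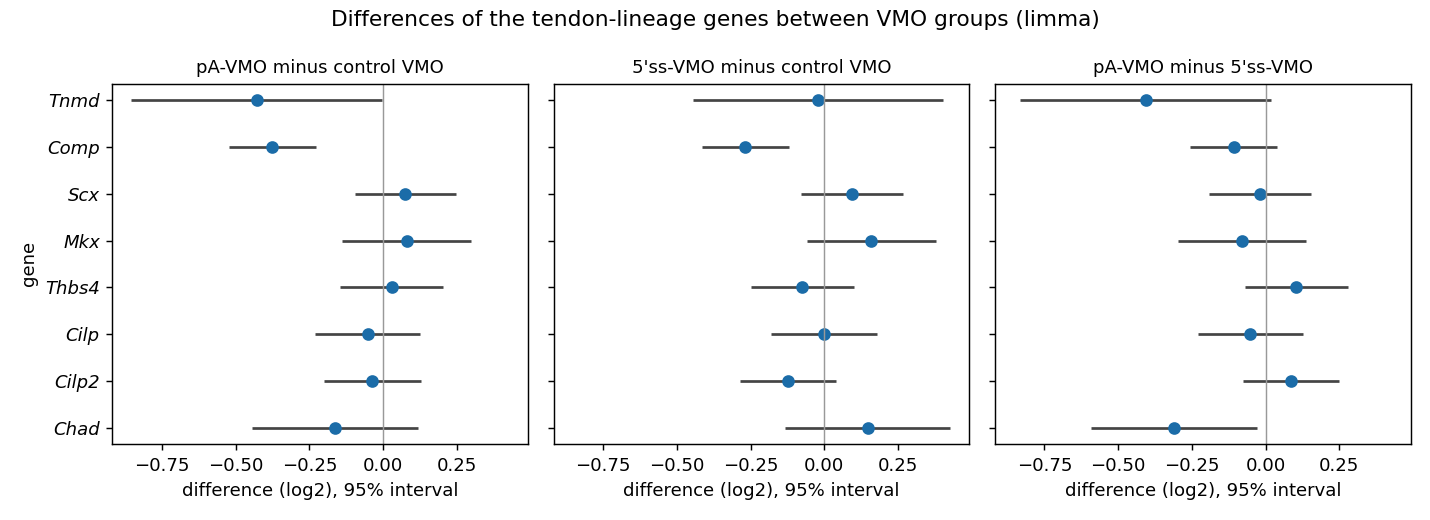
Difference in log2 level (x axis) of each tendon-lineage gene (y axis) for the 3 comparisons of VMO groups; points are limma estimates from 2 arrays per group and bars their 95% intervals, not adjusted for the number of genes. The interval of Comp lies below 0 against control with both reagents, while those of Thbs4, Cilp, Cilp2, Scx and Mkx include 0 in all 3 panels.

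The intervals set bounds on what these arrays leave possible. For Thbs4, Cilp, Cilp2 and Scx, every 95% interval in the 3 comparisons lay within 0.29 log2 units of 0. For Mkx the bounds reached -0.30 and 0.38, for Chad -0.59 and 0.43, and for Tnmd -0.85 and 0.40. The bounds do not show that these genes are unaffected. Those of Scx, Mkx and Chad are for mean levels below the median of all named genes, where RMA compresses differences. Those of Cilp2 are for levels near that median.

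Other tendon genes were read from a list beside the 8 members. Of its 31 genes, 29 were on the array under a single symbol and all 29 were tested. With pA-VMO 1 fell and 0 rose, and this gene, Kera, was the only 1 called of all 14953 genes (0.00669%). With 5'ss-VMO 1 fell and 1 rose (0.582% of all genes called), and between the reagents limma called 0 (0.0602% of all genes called). The list was chosen with earlier results of these data known, so its counts are no test of tendon genes as a set. At an unadjusted p under 0.05, 1 lay higher and 6 lower with pA-VMO, where 6.22% and 5.23% of all genes did. With 5'ss-VMO 4 lay higher and 4 lower at that level, against 7.72% and 6.19% of all genes. Between the reagents 1 lay higher and 6 lower, against 8.81% and 7.11%. The list's median difference was -0.02, 0.04 and -0.03 in these comparisons. Kera, the proteoglycan keratocan of cornea and tendon, was at 7.97 and 7.71 with control, 6.52 on both pA-VMO arrays, and 6.97 and 7.32 with 5'ss-VMO. It fell by 1.32 with pA-VMO (2.50-fold lower, adjusted p = 0.0232), a call lost without either control array (adjusted p = 0.19 and 0.144) or either pA-VMO array (adjusted p = 0.261 and 0.0856), at differences of -1.45 to -1.19; over the 15 alternatives its adjusted p ran from 0.00023 to 0.478. With 5'ss-VMO it fell by 0.69 (1.62-fold lower, adjusted p = 0.0474, or 0.00474 to 0.418 over the alternatives). Leaving out 5'ss-VMO replicate 2 kept that call (adjusted p = 0.0366), and leaving out any other array lost it (0.0707 to 0.239). Between the reagents Kera differed by -0.63, which did not pass (adjusted p = 0.0717).

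Tenascin C (Tnc), a matrix glycoprotein of tendon and of injured tissue, rose by 0.38 with 5'ss-VMO (1.30-fold, adjusted p = 0.0386). Its level was 11.86 and 11.87 with control, 12.05 and 12.09 with pA-VMO, and 12.24 on both 5'ss-VMO arrays. The call was lost whichever of the 6 arrays was left out (adjusted p = 0.0692 to 0.195), at differences of 0.37 to 0.38, and over all 15 alternatives the adjusted p ran from 0.000307 to 0.29. The secreted protein gene Angptl7 lay at 7.36 and 7.41 with control, 6.48 and 6.92 with pA-VMO, and 6.92 and 6.89 with 5'ss-VMO, all 4 treated arrays below control, at differences of -0.69 and -0.49 that did not pass (adjusted p = 0.204 and 0.148). The collagen-binding proteoglycan gene Lum lay at -0.19 and -0.33 (adjusted p = 0.314 and 0.0636).

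**Figure D4:**
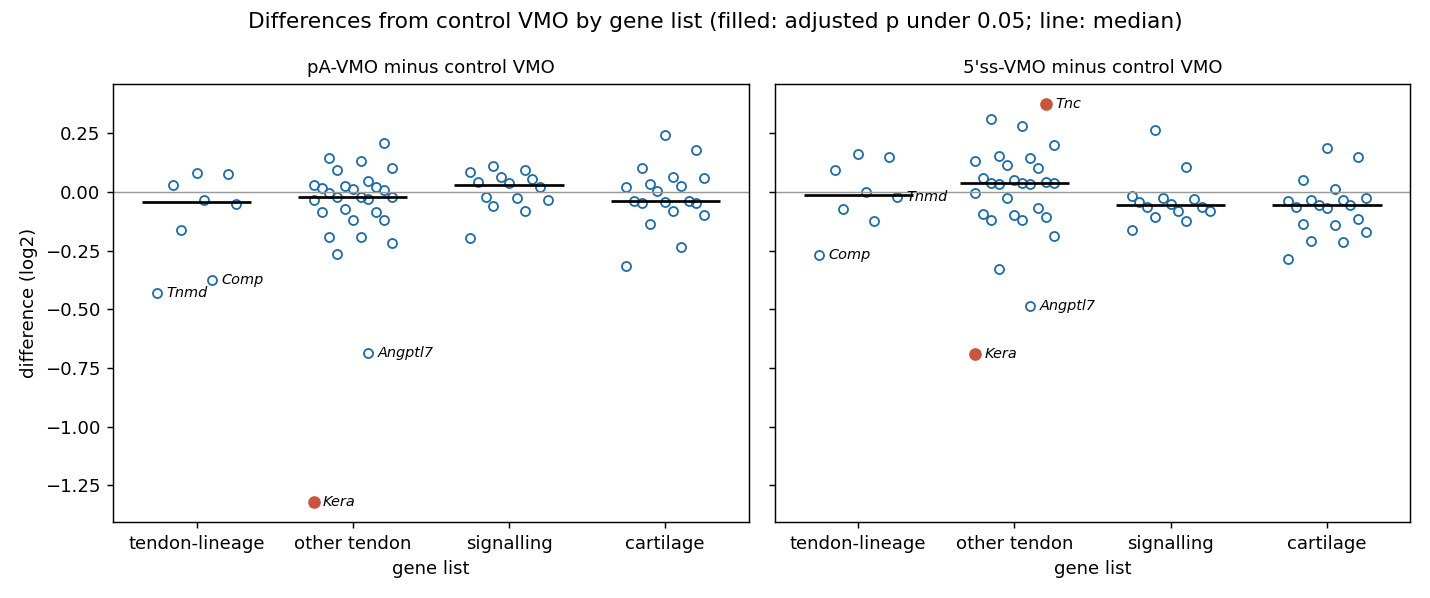
Difference from control in log2 level (y axis) of every tested gene of 4 lists (x axis) with pA-VMO (left) and 5'ss-VMO (right); filled points have an adjusted p under 0.05 and lines are list medians. Kera, at -1.32 and -0.69, and Tnc, at 0.38 on the right, are the filled points, and the list medians lie between -0.06 and 0.04. Both panels use the same control arrays.

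Signals known to act on tendon cells, and cartilage genes, gave no calls. Of 15 signalling genes 14 were tested, and limma called 0 in any comparison. Of all genes, 0.00669% (pA-VMO), 0.582% (5'ss-VMO) and 0.0602% (between the reagents) were called. At an unadjusted p under 0.05 there was 1 lower with pA-VMO, 1 higher and 1 lower with 5'ss-VMO, and 1 higher with pA-VMO against 5'ss-VMO. In these comparisons 6.22%, 7.72% and 8.81% of all genes lay higher at that level, and 5.23%, 6.19% and 7.11% lower. Counts this small cannot be set apart from such shares, here or for the cartilage genes below. Tgfb3, a ligand that promotes tendon differentiation, lay at 0.11 (pA-VMO) and at 0.26 (5'ss-VMO) from control (adjusted p = 0.587 and 0.162), and Bmp4 at -0.20 and -0.16 (adjusted p = 0.315 and 0.309). The growth factors Gdf7 and Gdf6 lay at 0.05 and 0.08 with pA-VMO and at -0.12 and -0.08 with 5'ss-VMO (adjusted p from 0.435 to 0.799). Of 23 cartilage genes 19 were tested, again with 0 called by limma, against the same shares of all genes. At an unadjusted p under 0.05 there were 1 higher and 1 lower with pA-VMO, 2 lower with 5'ss-VMO, and 3 higher with pA-VMO against 5'ss-VMO. Their median difference was -0.04 with pA-VMO; that with 5'ss-VMO was -0.06. Matn4, a matrilin that like Comp is a matrix adaptor protein, lay at 6.00 on both control arrays, 5.67 and 5.69 with pA-VMO, and 5.75 and 5.90 with 5'ss-VMO, at differences of -0.31 and -0.17 (adjusted p = 0.228 and 0.327). Matn3 lay on the other side at 0.24 and 0.15 (adjusted p = 0.329 and 0.435), and Prg4, the joint lubricant lubricin, at -0.05 and -0.28 (adjusted p = 0.911 and 0.29).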

How the data were processed

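Total RNA of FAPs frozen after isolation was measured on Affymetrix Mouse Gene ST arrays from 100 ng per array, per the labels' protocols. The deposited values are log2 levels made by the authors with RMA in Affymetrix Expression Console, per the submitters' processing notes; no source used here gives settings or versions. RMA equalises the arrays' distributions, so a change in total RNA per cell cannot be seen. Scanner files and scan dates were not used here, so no batch was tested.

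Of 35556 probe sets, 21789 have 1 gene symbol in the platform annotation, 1621 several and 12146 none. The probe set with the highest mean was taken per gene, and genes below the 25th percentile (5.21) were left out. Group means were fitted over all 6 arrays with limma (3.58.1, run in R 4.3.3; eBayes without trend; 3 residual and 6.06 prior degrees of freedom). The number of arrays limits the precision. On simulated data for pA-VMO against control (14953 genes, 200 of them changed, 20 runs) changes of 0.5 were recovered for 63.95% of genes and changes of 1 for 94%; 3.68% of calls were false. Recovery after adjustment is lower where fewer genes change. The 15 alternatives changed the filter, probe-set rule, centring, quantile normalization, eBayes form, groups fitted or block, or left out 1 array. The members and gene lists were chosen with earlier results of these data known. Beside the members, the genes named are those called and the 4 with the smallest F-test p of each tendon or cartilage list, and the 2 most correlated with each member (predicted, receptor and small RNA genes passed over). The rule also takes the 2 smallest F-test p of each marker list, which are given here mostly by counts. The thrombospondin genes and Cnmd were named for kinship, outside that rule. Coordinates and windows are from RefSeq tables of GRCm38.p6.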

Additional observations from a re-analysis of the deposited data

How the results depend on the processing

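Of 351 values of the 24 member differences under the alternatives, 335 kept their direction and their side of the threshold. The 2 that crossed it were those of Comp with trend and robust eBayes, where 1 member was called against control with either reagent and by the F test; the F test also called 1 with the filter at the median. Under every other alternative 0 members were called in any comparison. Directions changed in 14 values of 9 differences, all uncalled. Cilp with 5'ss-VMO was 0.0032 with arrays centred on their median and 0.036 with quantile normalization repeated. Leaving out 1 array gave ranges across 0 for Cilp (-0.098 to 0.096 with 5'ss-VMO, -0.15 to 0.0455 between reagents), Chad (-0.33 to 0.0039 with pA-VMO), Cilp2 (-0.11 to 0.037 with pA-VMO), Mkx (-0.22 to 0.056 between reagents), Scx (-0.092 to 0.054 between reagents), Thbs4 (-0.16 to 0.011 with 5'ss-VMO, -0.00835 to 0.06755 with pA-VMO) and Tnmd (-0.34 to 0.30 with 5'ss-VMO).

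Counts over all genes moved more; the cause was not tested. In the order pA-VMO, 5'ss-VMO, between reagents and F test, the main counts were 1, 87, 9 and 54. They were 0, 24, 3 and 6 with no filter, 0 throughout over all probe sets, and 49, 265, 186 and 299 with trend and robust. With the filter at the median they were 181, 102 and 170 in the last 3, and with quantile normalization repeated 51, 5 and 33. Centring gave 102 between reagents and 95 by the F test, and the mean of all probe sets gave 15 between reagents. Without 1 array they ran from 0 to 2, 8 to 76, 1 to 18 and 6 to 54. With the filter at the median, Scx, Mkx and Chad were below it and not tested, and the F test was not run on 2 groups alone.

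With the replicate number as a block the counts were 1, 90, 23 and 73, with 0 members called; Comp had an adjusted p of 0.221 (pA-VMO) and 0.185 (5'ss-VMO), and Kera and Tnc with 5'ss-VMO lost their calls (0.0549 and 0.0572). The labels do not say what a number marks. The differences between replicates 1 and 2 correlated over genes at -0.10 (control and pA-VMO), 0.02 (control and 5'ss-VMO) and -0.03 (pA-VMO and 5'ss-VMO). A correlation over all genes cannot settle whether samples of one number share a day, litter or batch, and that was not tested.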

Other observations

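For each member, the other genes whose levels ran most like it over the 6 arrays were looked up among tested genes whose SD over the arrays was at least that of the member, or at least 0.15 where that was lower. The measure is Pearson's r, given as a description with no test, since the highest of many correlations over 6 arrays is high whatever the genes. For Comp these were Scrn1 (r = 0.986) and Klk1b11 (r = 0.981), of 1476 genes compared. Scrn1 lay at 6.95 and 7.05 with control, 6.65 and 6.66 with pA-VMO, and 6.77 and 6.72 with 5'ss-VMO. For Tnmd they were Rspo2 (r = 0.956), which encodes an R-spondin that enhances Wnt signalling, and Acyp1 (r = 0.954). For Chad they were Nuak1 and Tcp11l1 (r = 0.972 for both). For Scx they were Cd80 (r = 0.981) and Phlda3 (r = 0.978), and for Mkx Gys1 (r = 0.988) and Gtf2e2 (r = 0.982). For Thbs4 they were Nos1 (r = 0.99) and Slc25a26 (r = 0.989), for Cilp Otulinl (r = 0.99) and Dhrs13 (r = 0.97), and for Cilp2 Kcnj9 (r = 0.993) and Scn3b (r = 0.985).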
